A study of Mikania micrantha with 15 samples.

Results

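The genes described here are those that root and stem of Mikania micrantha, a climbing vine of the daisy family, expressed in common and at a higher level than flower, leaf and shoot apex. Of the 41487 gene IDs in the table, 67 met the rule and are called shared IDs. Levels are in CPM, the read count of an ID times 1000000 over the column total of its library. The shared IDs were selected on their tissue means in CPM. An ID was chosen when the lower of its root and stem means was at least 10 CPM and at least 4 times the highest of its flower, leaf and shoot apex means. Its root and stem means also had to be less than 3-fold apart. Each mean was over 3 libraries. Since these values chose the IDs, their levels in root and stem against the other organs are given as a description with no test.

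The 5 groups were root, stem, flower, leaf and shoot apex, where new leaves arise, of wild-type vines, with 3 libraries each and 15 in all. All plants had been raised alike from cuttings that formed roots in water. After that they were kept in Hoagland liquid medium, a solution of mineral nutrients. This stage lasted 60 days, at 24 °C, with lights on for 16 h and off for 8 h a day. The organ was the only labelled difference between the groups. The labels do not say whether the 3 libraries of an organ came from separate plants, so p-values here measure only how these libraries vary, in part perhaps for technical reasons.

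Root and stem form the axis of a vascular plant. Both carry xylem, which moves water and minerals upward in cells with lignified walls, and phloem, which moves sugars. Both can thicken from a vascular cambium, and stems of this vine form roots at their nodes. The table pairs no ID with a gene name or product, so no function is attached to any ID and the labelled organs were not checked against marker genes. IDs are locus tags, numbers given to the genes of an assembly. In whole organs, a lower level from fewer cells of a type and one from less RNA per cell cannot be told apart.

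Library totals ranged from 3777165 counts in root replicate 2 to 12817396 in shoot apex replicate 2. In root and in stem 1 library stood apart. Replicates were compared by a chi-square of their counts per degree of freedom, which is near 1 for counting noise alone. Where replicates differ by more than that, it also rises with depth. Root replicate 1, with 10015399 counts, and stem replicate 3, with 9721732, were the deepest libraries of their organs. The part of depth in these values was not tested. Root replicate 1 gave 48.1 and 36.8 against root replicates 2 and 3, which gave 5.25 with each other. Stem replicate 3 gave 35.4 and 29.5 against stem replicates 1 and 2, which gave 3.70. The 3 leaf libraries all differed from each other, with 69.0 between replicates 1 and 2, 19.3 between 1 and 3 and 26.4 between 2 and 3. Leaf replicate 1 also held reads of IDs that were otherwise read in flower. There were 123 IDs with a mean of 50 CPM or more in flower that stayed under 1 CPM in root, stem and shoot apex. Leaf replicate 1 held reads of all 123, with a median CPM of 3.29% of that in flower. Leaf replicate 2 held reads of 39 and leaf replicate 3 of 42, and both medians were 0. Without root replicate 1, stem replicate 3 and leaf replicate 1, the rule chose 73 IDs, of which 54 were among the 67.

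The shared IDs held a small part of each transcriptome. In root they took 0.436%, 0.705% and 0.597% of the counts in replicates 1, 2 and 3, and in stem 0.503%, 0.477% and 0.302%. In flower they took 0.0383 to 0.0490%, in leaf 0.0359 to 0.0421% and in shoot apex 0.0325 to 0.0341%. The highest library of the other organs thus lay below the lowest of root and stem, as the rule requires of the means.

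The median over the 67 IDs was 41.8 CPM in root, 30.5 CPM in stem, 2.56 CPM in flower, 2.45 CPM in leaf and 1.87 CPM in shoot apex. Over all 27055 IDs tested for differences, the medians were 10.8, 11.5, 17.4, 14.5 and 19.0 CPM in the same order of organs. In 9 shared IDs the lower of the root and stem means reached 100 CPM, and in 20 it was under 20 CPM. Each of the 67 passed the filter on low counts, which all of them could pass through root and stem alone. For 65 of them, every one of the 6 root and stem libraries lay above every one of the 9 others, as 4.39% of all IDs tested did. The rule used this contrast, so the count adds nothing to it.

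**Figure D1:**
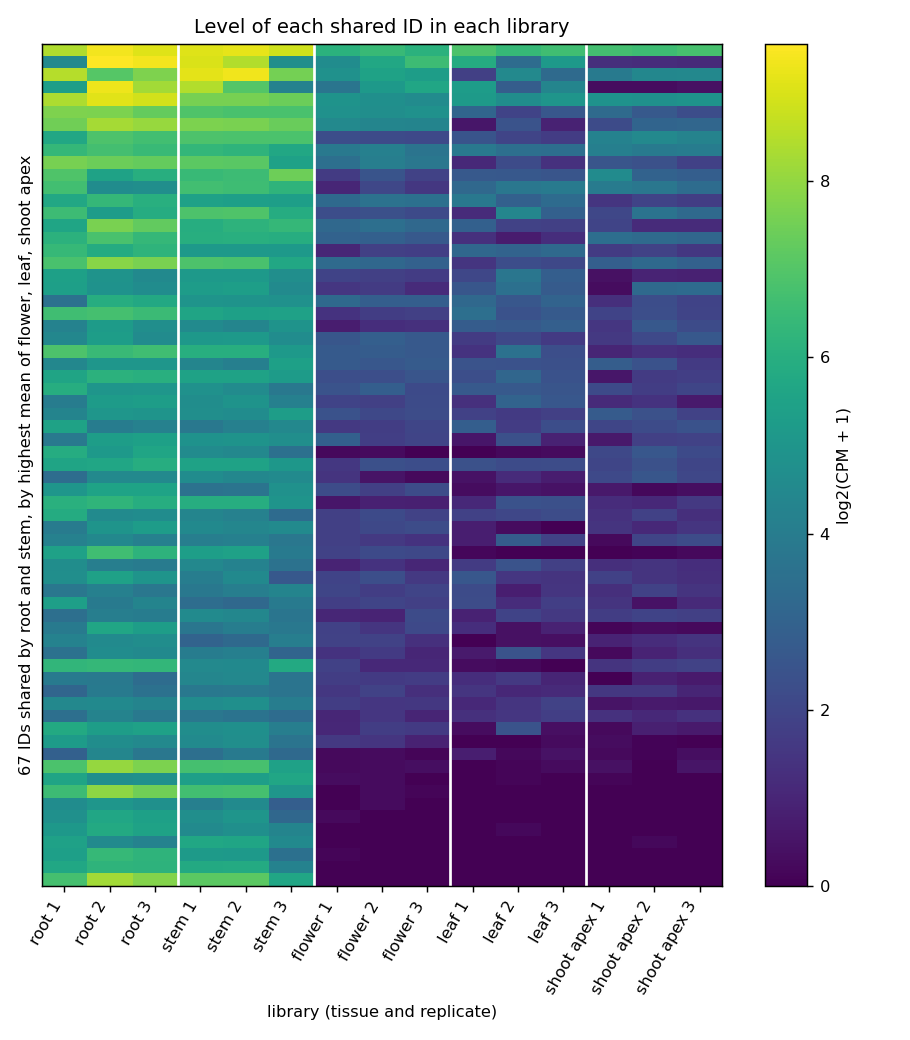
Level of the 67 shared IDs (rows) in the 15 libraries (columns), as log2(CPM + 1), with rows ordered by the highest of the flower, leaf and shoot apex means. The 11 lowest rows are near 0 in all 9 libraries of flower, leaf and shoot apex, while the other rows keep a level there that reaches 118 CPM in the row of E3N88_16759.

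The levels near the limits show how the rule divides a continuous range. E3N88_26684 was just inside the limit on level, with a root mean of 24.8 CPM and a stem mean of 10.7 CPM, and E3N88_20857 just outside it, with 11.7 and 9.89 CPM. E3N88_35911 exceeded its highest other organ, leaf, by 4.04-fold, whereas E3N88_16050 missed with 3.99-fold. The widest gap among the shared IDs was the 2.60-fold of E3N88_41145 in favour of root. E3N88_40110, with a root mean of 13.5 CPM and a stem mean of 40.8 CPM, fell outside with 3.01-fold.

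The shared IDs were few beside all that root and stem both expressed. In 12106 IDs the lower of the root and stem means was at least 10 CPM, and in 83 of these it was also at least 4 times the highest of the other organs. Of the 83, 12 were left out because root exceeded stem by 3-fold or more and 4 because stem exceeded root by as much. The same rule with the organs exchanged chose 121 IDs for flower and shoot apex, 51 for root and flower, 40 for flower and leaf and 27 for leaf and shoot apex. It chose 23 for stem and flower, 22 for root and leaf, 14 for stem and shoot apex, 9 for stem and leaf and 3 for root and shoot apex. These counts were not tested against each other. They depend on the scaling: with totals scaled by TMM, the trimmed mean of M-values, the rule for root and stem chose 104 IDs, including all 67.

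The rule was also applied to 10 libraries at a time, and the IDs it chose were read in the 5 libraries that had no part in the choice. Without replicate 1 of every organ it chose 56 IDs. In the 5 libraries left out, 55 of these had root and stem above all 3 other organs, 35, or 62.5%, by at least 4-fold, and 32 met the whole rule. Without replicate 2 it chose 69 IDs, of which 68 had that order in the libraries left out, 46, or 66.7%, kept 4-fold and 42 met the whole rule. Without replicate 3 it chose 88 IDs, of which 70 had that order, 43, or 48.9%, kept 4-fold and 30 met the whole rule. Of all tested IDs, 10.6 to 12.9% had that order in these sets of 5 libraries and 1.04 to 1.25% had it by 4-fold. Most of the chosen IDs thus had the order of organs in the unused libraries, but in the set of replicate 3 most did not meet the whole rule. The libraries left out here had a part in choosing the 67 IDs.

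The shared IDs differed in how much of their level remained outside root and stem. In 11 of them flower, leaf and shoot apex were all under 1 CPM, and in the other 56 at least 1 of these organs reached 1 CPM. The bound of 1 CPM was set after the values were seen. Flower was under 1 CPM for 14 IDs, leaf for 20 and shoot apex for 21. All 3 organs were at 1 CPM or more for 40 IDs. The ratio of the lower of root and stem to the highest other organ had a median of 5.86 over the 67 IDs. Organs with no read were set to a floor of 3 counts over their 3 libraries for this ratio, which is 0.0945 CPM in flower, 0.0999 CPM in leaf and 0.0839 CPM in shoot apex. The ratio was under 5 for 21 IDs, between 5 and 10 for 27 and between 10 and 20 for 8. Of the 11 IDs under 1 CPM, 10 had ratios of 151 to 1112, while E3N88_36295, at 25.03, was close to the 16.1 of E3N88_02389, the highest of the other 56. Both were named after their values were seen.

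**Figure D2:**
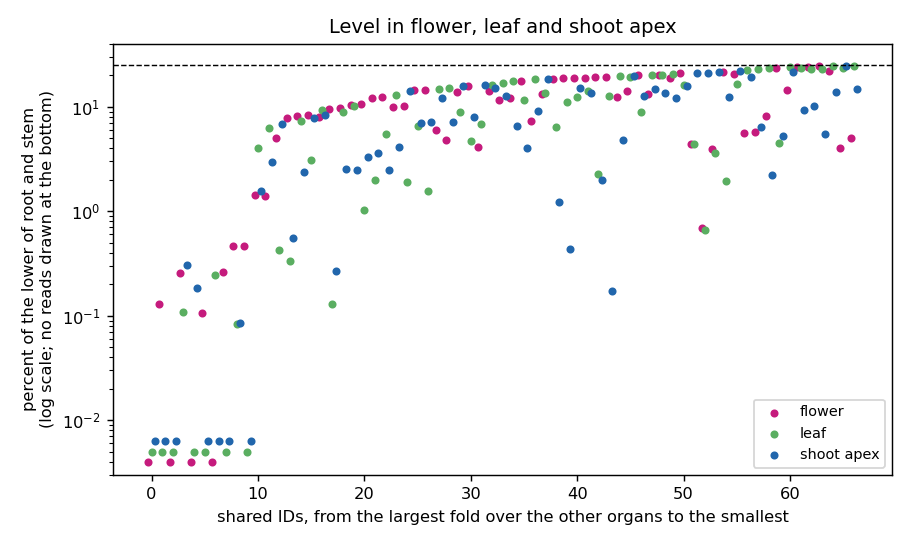
Mean level in flower, leaf and shoot apex (points) as a percent of the lower of the root and stem means, on a log scale, for the 67 shared IDs ordered by their fold over the other organs. The dashed line is the 25% that the rule allows, and points at the bottom edge had no read in that organ. The 10 IDs on the left lie apart, with every organ under 1%, whereas each of the other 57 has an organ above 1%.

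The 11 IDs with little or no signal outside root and stem had 61 reads in all over the 9 libraries of flower, leaf and shoot apex. Of these IDs, 8 had 3 reads or fewer there, and E3N88_36295, with the most, had 23. Their means ran from 13.3 to 208 CPM in root and from 11.0 to 111 CPM in stem. E3N88_38442 was read at 105, 298 and 221 CPM in root replicates 1 to 3 and at 143, 142 and 48.9 CPM in stem. It had no read in the other 9 libraries, which puts its stem mean at least 1112-fold above leaf, the organ with the highest floor. E3N88_40557 was at 92.7, 240 and 177 CPM in root and at 99.2, 105 and 31.4 CPM in stem. In flower it had 3 reads, and in leaf and shoot apex none. E3N88_36143, named after its values were seen, was the only other shared ID with no read in any of the 9 libraries. It was at 50.3, 72.5 and 71.7 CPM in root and at 54.4, 56.0 and 17.8 CPM in stem. In each of these 3 IDs root replicate 1 was the lowest of root and stem replicate 3 the lowest of stem.

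The rule read only means and not the order of libraries within an organ, but these same libraries formed the means. Counts of that pattern are therefore descriptions with no test. Root replicate 1 was the lowest root library in 9 of the 11 IDs and stem replicate 3 the lowest stem library in 10 of the 11, with both true in 9. Among the other 56 shared IDs both were true in 21, or 37.5%. Among the 12106 IDs with at least 10 CPM in root and stem both were true in 11.4%, and in 23.3% on CPM scaled by TMM. On the TMM scale both were true in 9 of the 11 IDs and in 26 of the 56. The mean of root replicates 2 and 3 was 1.73 times replicate 1 in the median of the 11 IDs, 1.35 times in the 56 and 0.945 times in the 12106. The mean of stem replicates 1 and 2 was 2.91 times replicate 3 in the median of the 11, 1.28 times in the 56 and 0.879 times in the 12106. On the TMM scale these medians were 1.89 in root and 3.54 in stem for the 11 IDs, against 1.03 and 1.07 for the 12106. The 2 exceptions, E3N88_08517 and E3N88_14780, were named after their values were seen and were the only IDs of the 11 with a higher mean in stem than in root. E3N88_14780 was at 47.3, 25.4 and 26.5 CPM in root and at 41.1, 40.4 and 49.99 CPM in stem. The share that depth or tissue sampling had in these differences between libraries was not tested.

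**Figure D3:**
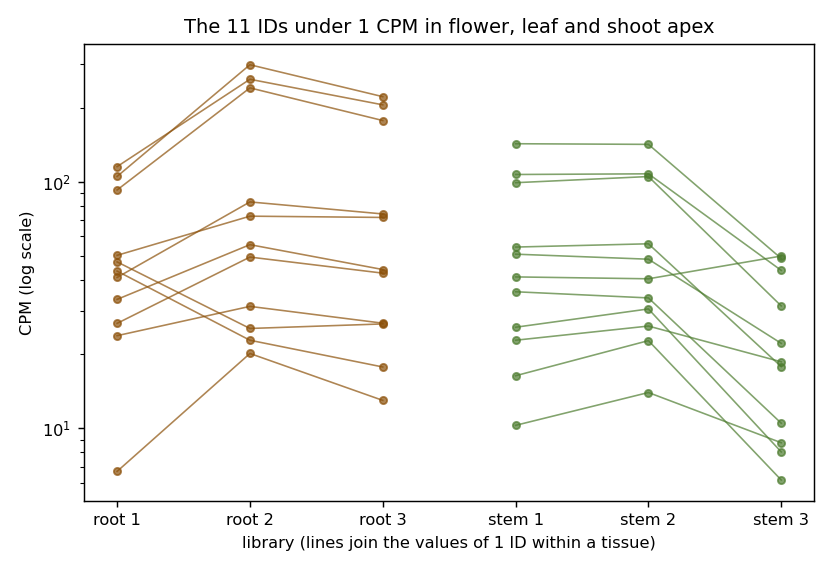
CPM (log scale) of the 11 IDs under 1 CPM in flower, leaf and shoot apex, in the 3 root and the 3 stem libraries, with a line joining the values of 1 ID within an organ. In 9 of the 11 IDs root replicate 1 and stem replicate 3 are the lowest of their organ.

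The shared IDs had a wider median spread between replicates than other genes read at 10 CPM or more in the same organ. The median SD of log2(CPM + 1) over replicates was 0.42 for the 67 IDs in root, against 0.29 for the 13916 tested IDs with at least 10 CPM there. In stem it was 0.37, against 0.24 for 14235 IDs. In root 28 of the 67 IDs, or 41.8%, differed by at least 2-fold between their highest and lowest library, against 21.1% of the 13916. In stem it was 27, or 40.3%, against 14.6% of the 14235. Root replicate 2, the library with the fewest counts, was the highest root library for 40 of the 67 IDs, or 59.7%, against 27.1% of the tested IDs with at least 10 CPM. These medians and shares are descriptions and were not tested.

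The widest spread was that of 2 IDs with consecutive numbers, which were also the only shared IDs whose root and stem libraries overlapped those of the other organs. E3N88_19944 was at 22.5, 752 and 674 CPM in root replicates 1 to 3 and at 521, 349 and 25.1 CPM in stem. In flower it was at 24.4, 51.6 and 93.7 CPM, in leaf at 57.6, 9.50 and 33.7 CPM and in shoot apex at 1.43, 1.33 and 1.18 CPM. Root replicate 1 and stem replicate 3 thus lay within the range of flower and leaf. E3N88_19945 was at 39.8, 640 and 301 CPM in root, at 353, 126 and 17.9 CPM in stem and at no more than 49.9 CPM in any other library. Both IDs met the rule through the other 4 root and stem libraries.

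Root and stem stood close in level by the rule, and most of the shared IDs leaned to root. The mean was higher in root for 50 IDs and higher in stem for 17, with a median root to stem ratio of 1.44 and a range from 0.494 to 2.60. Over the 12106 IDs with at least 10 CPM in both organs the median ratio was 0.970. With TMM factors the medians were 1.501 for the shared IDs and 1.03 for the 12106. The organs were less than 1.5-fold apart in 32 shared IDs, while 16 were at least 2-fold higher in root and 1 at least 2-fold higher in stem. All 3 root libraries lay above all 3 stem libraries in 25 of the 67 IDs, with 17.6% of all tested IDs doing so. The reverse held for 0 of the 67, with 24.8% of all tested IDs. The rule used the root and stem means, so neither count is a test. Stem replicate 3, which stood apart, was the lowest stem library for 48 of the 67 IDs, and root replicate 1 the lowest root library for 41. A count of 0 thus does not mean that no ID was higher in most stem libraries. In E3N88_36044 stem replicates 1 and 2 lay above every root library and stem replicate 3 did not.

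**Figure D4:**
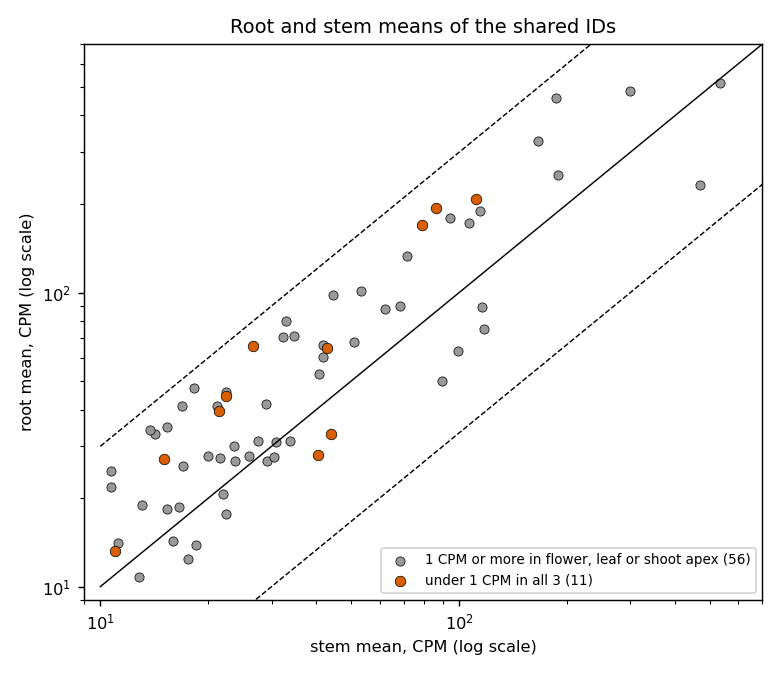
Root mean (vertical) against stem mean (horizontal) of the 67 shared IDs in CPM on log scales, with equal levels as a solid line and the 3-fold limits of the rule as dashed lines. Of the 67 points, 50 lie above the solid line. The 11 IDs under 1 CPM in the other organs (orange) reach 208 CPM in root and 111 CPM in stem, below the highest points.

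The IDs at the ends of that range had different replicate patterns. E3N88_41145 was at 59.7, 34.4 and 48.1 CPM in root, against 23.3, 20.9 and 10.5 CPM in stem, and its root and stem libraries did not overlap. E3N88_20119 was at 14.4, 49.0 and 38.6 CPM in root, against 12.5, 15.5 and 13.2 CPM in stem. There, root replicate 1 lay among the stem libraries. At the stem end, E3N88_36044 was at 358, 129 and 207 CPM in root, against 567, 649 and 188 CPM in stem. E3N88_14721 was at 100.4, 23.8 and 25.6 CPM in root, against 100.3, 96.0 and 73.2 CPM in stem. In both of these the libraries overlapped, with root replicate 1 high and stem replicate 3 the lowest of stem.

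By CPM, which is not per length, the largest read counts were those of E3N88_16759, at 338, 663 and 544 CPM in root and at 543, 587 and 471 CPM in stem. It also had 67.2 to 84.9 CPM in flower, 82.7 to 118 CPM in leaf and 94.6 to 108 CPM in shoot apex. Its lower mean, that of root, was 5.07 times its highest mean elsewhere. It was not called in any of the 3 comparisons of these organs.

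Flower, leaf and shoot apex were compared with each other because the rule treated them alike in plain CPM. It used only the highest of the 3 means. That mean was held to the lower of the root and stem means divided by 4, or less. The choice thus limited how far these organs could lie apart in CPM, a limit not set for all IDs tested. The tests scaled totals by TMM, with factors of 1.15 to 1.18 in shoot apex and 0.921 to 1.07 in leaf. The same limit thus allowed leaf a higher tested level than shoot apex. An ID was called at a Benjamini-Hochberg adjusted p under 0.05 over all 27055 IDs tested and a change of at least 2-fold, by edgeR's quasi-likelihood test. For the difference among the 3 organs, an F test with the adjusted p alone was used. It called 35 of the 67 IDs, or 52.2%, against 66.9% of all IDs tested. The share over the 67 includes IDs with hardly a read in these organs. In fits without root and stem, 55 of the 67 passed the filter for the 3 organs or for a pair of them. The F test over the 3 organs called 36 of these 55, or 65.5%, against 73.2% of the 26242 IDs that passed in the same way. Any ID that passed only for a pair had no F test and was counted as not called. The edgeR test called 0 of the 11 IDs under 1 CPM, with 0 of them at an unadjusted p under 0.05, and DESeq2 also called 0. Each of the 11 had 23 reads or fewer over the 9 libraries, and the missing calls do not show that the organs were alike. All 35 calls came from the other 56 IDs.

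Outside root and stem, shoot apex was the organ least often the highest of the 3. The flower mean was counted as the highest of the 3 for 34 shared IDs, or 50.7%, against 33.9% of all tested IDs. These 34 include the 2 IDs with no read in any of the 3 organs, as ties at 0 were counted for flower. Any such ties among all tested IDs were counted in the same way. The leaf mean was the highest for 20, or 29.9%, against 26.01%. The shoot apex mean was the highest for 13, or 19.4%, against 40.1%. These shares use CPM of plain totals and are descriptions. With TMM factors flower had 28 IDs, again including those 2 ties, and leaf had 28, so flower was below leaf among IDs with a read. Shoot apex had 11, or 16.4%, against 34.6% of all tested IDs.

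Between flower and leaf, 13 of the 67 IDs were called higher in flower, with 20.2% of all tested IDs, and 8 higher in leaf, with 15.7%. The 2 counts together were 21, or 31.3% of the shared IDs, against 35.9% of all tested IDs. The median log2 fold change of flower over leaf was -0.04 over the 67 IDs and 0.09 over all IDs tested. With organs without reads at their floor, the median log2 ratio of the plain means was 0.07 over the 64 shared IDs with a read in either organ, and thus of the other sign. Without leaf replicate 1, which held reads of the flower IDs described above, 12 were called higher in flower and 10 in leaf. Of these 22, 19 were among the 21. In that fit 33.0% of all IDs were called in either direction.

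The largest difference in favour of flower was that of E3N88_24478, at 2.72, 3.45 and 3.17 CPM in flower, against 0.126, 0 and 0 CPM in leaf. It had 98 reads in flower and 1 in leaf, a ratio of 92.7 with a 95% exact (Clopper-Pearson) interval of 16.2 to 3697, which covers counting error only (edgeR adjusted p = 0.000196). It was at 43.4, 97.4 and 70.8 CPM in root and at 39.7, 43.3 and 14.1 CPM in stem. E3N88_35092 had 50 reads in flower and 2 in leaf, a ratio of 23.6 with an interval of 6.21 to 201 (edgeR adjusted p = 0.00127). The 1 leaf read of E3N88_24478 was in leaf replicate 1 and both of E3N88_35092 were in leaf replicate 3. The fitted log2 fold changes were 5.90 and 4.13, and without the library that held those reads they were 7.77 for E3N88_24478 (edgeR adjusted p = 0.000939) and 6.75 for E3N88_35092 (edgeR adjusted p = 0.00168). With no leaf read left, such values depend on the prior count of the fit and are no bound. In both IDs every flower library lay above every leaf library.

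In favour of leaf, E3N88_14721 was at 1.02, 3.14 and 1.92 CPM in flower, against 8.30, 12.9 and 14.3 CPM in leaf. Its log2 fold change of flower over leaf was -2.73 ± 0.53 (SE, edgeR adjusted p = 0.000691). E3N88_35911 was at 0.680, 1.36 and 1.54 CPM in flower, against 5.91, 5.33 and 6.36 CPM in leaf. There, the log2 fold change was -2.48 ± 0.44 (SE, edgeR adjusted p = 0.000292). The flower and leaf libraries of both IDs did not overlap.

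Between flower and shoot apex, 17 shared IDs were called higher in flower, with 17.5% of all tested IDs, and 6 higher in shoot apex, with 13.6%. The 17 make up 25.4% of the shared IDs and the 6 make up 8.96%, together 34.3% against 31.1% of all tested IDs. The median log2 fold change of flower over shoot apex was 0.65 over the 67 IDs, against -0.03 over all IDs tested, and the log2 ratio with floors was 0.45 over 64 IDs. Without root replicate 1, stem replicate 3 and leaf replicate 1, the calls were 22 higher in flower and 6 in shoot apex. In that fit 34.2% of all IDs were called in either direction.

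The largest fold changes in favour of flower were those of the 2 IDs with the widest replicate spread. E3N88_19945 averaged 32.2 ± 18.9 CPM in flower and 0.283 ± 0.0697 CPM in shoot apex (SD, n = 3 each). The log2 fold change was 6.85 ± 1.51 (SE, edgeR adjusted p = 0.00211). E3N88_19944 averaged 56.6 ± 34.9 CPM in flower and 1.31 ± 0.125 CPM in shoot apex (SD, n = 3 each), and the log2 fold change was 5.49 ± 1.35 (SE, edgeR adjusted p = 0.00443). All flower libraries of both lay above all shoot apex libraries.

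In favour of shoot apex, E3N88_41145 was at 0.170, 0.209 and 0 CPM in flower, against 3.19, 4.99 and 3.45 CPM in shoot apex. Its log2 fold change of flower over shoot apex was -4.74 ± 0.63 (SE, edgeR adjusted p = 4.03e-05). E3N88_14721 was at 14.5, 12.7 and 9.43 CPM in shoot apex. The log2 fold change was -2.53 ± 0.53 (SE, edgeR adjusted p = 0.00144). In neither ID did flower and shoot apex libraries overlap.

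Between leaf and shoot apex, 17 shared IDs were called higher in leaf, with 17.2% of all tested IDs, and 9 higher in shoot apex, with 18.3%. The 17 make up 25.4% of the shared IDs and the 9 make up 13.4%, together 38.8% against 35.5% of all tested IDs. The median log2 fold change of leaf over shoot apex was 0.32 over the 67 IDs, against -0.06 over all IDs tested, and the log2 ratio with floors was 0.16 over 61 IDs. With plain totals, the scale of the rule, 14 were called higher in leaf and 9 in shoot apex, with 36.5% of all IDs. Without leaf replicate 1, 13 were called higher in leaf and 7 in shoot apex, with 30.4% of all IDs called in either direction.

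E3N88_19945 averaged 21.3 ± 16.2 CPM in leaf and 0.283 ± 0.0697 CPM in shoot apex (SD, n = 3 each). The log2 fold change was 6.45 ± 1.52 (SE, edgeR adjusted p = 0.00279). E3N88_19944 averaged 33.6 ± 24.0 CPM in leaf and 1.31 ± 0.125 CPM in shoot apex (SD, n = 3 each), and the log2 fold change was 4.95 ± 1.34 (SE, edgeR adjusted p = 0.00692). When leaf replicate 1 was left out, these values were 5.66 for E3N88_19945 (edgeR adjusted p = 0.0126) and 4.25 for E3N88_19944 (edgeR adjusted p = 0.0259). In the other direction, E3N88_41145 was at 0, 0.167 and 0.199 CPM in leaf, against 3.19, 4.99 and 3.45 CPM in shoot apex. Its log2 fold change was -4.52 ± 0.64 (SE, edgeR adjusted p = 4.64e-05). E3N88_05353 was at 0.252, 0.167 and 0 CPM in leaf, against 1.68, 2.34 and 2.72 CPM in shoot apex. Its log2 fold change was -3.72 ± 0.63 (SE, edgeR adjusted p = 0.000234). The leaf and shoot apex libraries of these 4 IDs did not overlap. The 3 comparisons share libraries with each other, since each organ enters 2 of them.

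Some shared IDs stand side by side in locus tag number, which the rule did not use. In 6 of the 67, or 8.96%, the number differed by 1 from that of another shared ID, and in 9, or 13.4%, by 1 or 2. Under the rule with exchanged organs, the share with a number 1 apart was 9.09% of the 22 IDs of root and leaf, 1.65% of the 121 of flower and shoot apex and 0% for each of the other 7 pairs. With 1 or 2 apart it was 9.09% for root and leaf, 7.44% for flower and shoot apex, 7.41% for leaf and shoot apex and 5% for flower and leaf. Within 5 numbers, root and leaf reached 18.2% and flower and leaf 15%, against 13.4% for root and stem. Consecutive locus tags may stand for neighbouring genes or for copies, and reads of near-identical copies could have been split between them. The placing of the IDs on chromosomes was not analysed here.

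The IDs of such a group could differ from each other in any organ. E3N88_40556 was at 48.3, 198 and 153 CPM in root, 60.6, 72.0 and 81.9 CPM in stem and 8.33, 10.1 and 8.45 CPM in flower, whereas its neighbour E3N88_40557 had only 3 reads in flower. Stem replicate 3 was the highest stem library of E3N88_40556 and the lowest of E3N88_40557. E3N88_02186 and E3N88_02187 were close in stem, at 24.1, 20.7 and 22.5 CPM and at 25.2, 23.9 and 38.5 CPM. In flower E3N88_02186 was at 1.70, 0.418 and 0.192 CPM and E3N88_02187 at 4.33, 3.24 and 3.65 CPM. E3N88_19944 and E3N88_19945 had the same order of libraries within stem, flower and leaf, with replicate 1 the highest in stem and in leaf and replicate 3 the highest in flower.

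A group of 3 IDs with every other number, E3N88_01651, E3N88_01653 and E3N88_01655, was singled out after its values were seen. E3N88_01651 was at 52.1, 116 and 100.2 CPM in root, 118, 113 and 116 CPM in stem and 18.1, 21.4 and 18.4 CPM in shoot apex, with no more than 4.53 CPM in flower and leaf. E3N88_01653 was at 20.3, 31.5 and 31.5 CPM in root, 19.3, 16.4 and 42.4 CPM in stem and 2.09 to 5.97 CPM in the other organs. E3N88_01655 was at 18.1, 22.5 and 25.05 CPM in root and at 7.35, 8.72 and 16.05 CPM in stem. It was at 1.54 to 2.72 CPM in flower, against 0 to 0.333 CPM in leaf. The ID between the first pair, E3N88_01652, reached 1.70 to 4.94 CPM in root and stem and 0 to 1.45 CPM elsewhere, with root and stem libraries all above the others. E3N88_01654 had 1 read in the 15 libraries.

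**Figure D5:**
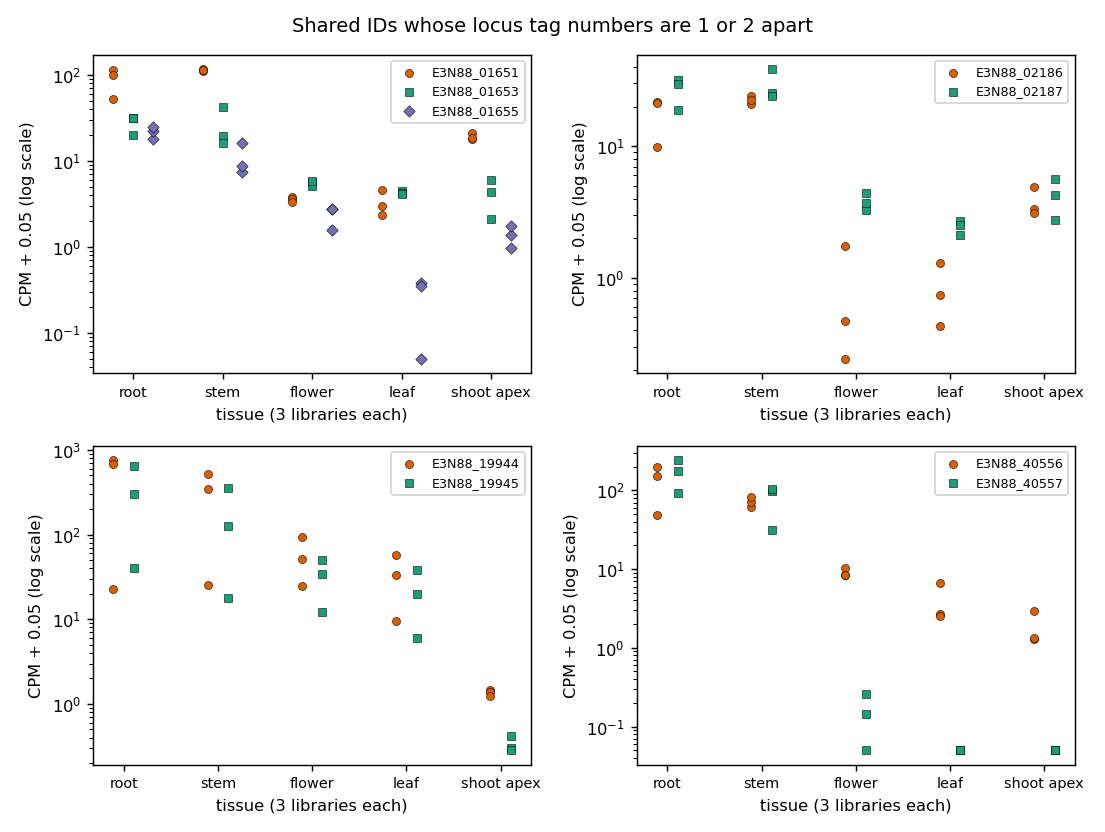
CPM plus 0.05 on a log scale, by organ, for the 4 groups of shared IDs whose locus tag numbers are 1 or 2 apart, with 1 point per library and a colour and marker per ID. In the group of E3N88_40556 and E3N88_40557 the first keeps 8.33 to 10.1 CPM in flower where the second is near 0.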

How the data were processed

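RNA-seq libraries of root, stem, flower, leaf and shoot apex, 3 each, were grouped by their titles. The authors deposited 1 table of raw counts, whole numbers per locus tag with no normalization. The submitters' processing notes name HISAT2, an aligner. What counted the reads, on which build and annotation, and how strand and multiple alignments were treated is not given in the sources used here. Therefore counts of copies, overlapping and antisense genes are uncertain.

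CPM of plain column totals chose the 67 IDs and give every level here. Tests used edgeR 4.0.16 in R 4.3.3 on the counts. IDs were kept by filterByExpr, which left 27055, totals were scaled by TMM, and glmQLFit and glmQLFTest were run with 1 term per organ over all 15 libraries. SE is the log2 fold change over the square root of F. The procedure was tested on simulated data. DESeq2 1.42.0 was an alternative, as were other scalings, limits and filters, a replicate block, and fits without each library.

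IDs are named by level, fold, root to stem ratio, largest called fold in each direction of a comparison, replicate spread, nearness to a limit and consecutive numbers. The shared IDs and these rules were chosen with earlier results of these data known.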

Additional observations from a re-analysis of the deposited data

How the results depend on the processing

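The number of shared IDs depended on the scaling and on the fold limit. It was 104 with totals scaled by TMM and 107 with RLE factors, each including all 67, because these factors raise root and stem relative to flower and shoot apex. It was 114 with a fold limit of 3 and 22 with a limit of 8. Limits of 5 or 20 CPM gave 87 and 47, a limit of 2-fold between root and stem gave 50, and tissue medians gave 67, of which 57 were shared. Leaving out 1 library gave 65 to 73 IDs. Without root replicate 1, stem replicate 3 and leaf replicate 1 together, a setting chosen after seeing the data, 11 of the 67 were again under 1 CPM in the other organs.

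Counts of calls stayed within 1.5 times under every setting run. Without 1 library they were 18 to 22 for flower and leaf, 21 to 26 for flower and shoot apex, 20 to 28 for leaf and shoot apex and 32 to 38 for the 3 organs together. Of all IDs in these fits, 31.7 to 37.8%, 25.3 to 32.8%, 30.4 to 38.6% and 58.3 to 71.4% were called, in the same order. Without the 3 libraries the counts were 24, 28, 27 and 42 in that order, with 36.6%, 34.2%, 33.9% and 76.4% of all IDs. DESeq2 gave 22, 28, 31 and 38, with 35.6%, 30.8%, 36.2% and 69.7% of all IDs. With plain totals, the median over all IDs of the log2 fold change shifted by 0.18 for flower over leaf and by -0.24 for leaf over shoot apex. In the fits of only the organs compared, 55 of the 67 IDs passed the filter of at least 1 fit. The number that passed for each pair of organs was not counted. The calls of the IDs named in these comparisons were kept in every setting that fitted them. Without leaf replicate 2, the log2 fold change of flower over leaf was 5.24 for E3N88_24478, against 5.90, and 3.40 for E3N88_35092, against 4.13. Root libraries lay above stem in 19 IDs with TMM and 22 with RLE factors, against 25, and the reverse was 0 in each. The shares over all tested IDs, 17.6% and 24.8% for the reverse, were counted on plain CPM only. The TMM and RLE counts thus cannot be set beside genes at large.

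The mean share of counts without 1 library was 0.516 to 0.651% in root, 0.389 to 0.490% in stem, and in the other organs 0.0431 to 0.0484% for flower, 0.0359 to 0.0390% for leaf and 0.0330 to 0.0338% for shoot apex.

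The labels do not say whether same-numbered libraries of different organs came from the same plant. Same-numbered libraries of 2 organs deviated together (r over 0.1) in 5 of 30 cases. Taken from the mean of only 3 libraries and not set beside differently numbered pairs, these values cannot show whether the numbers pair samples. With a replicate block the calls were 21, 25, 27 and 35, with 34.5%, 29.8%, 34.3% and 63.2% of all IDs in that fit. Depth limits the IDs with few reads: 3 counts over an organ equal 0.0839 to 0.156 CPM.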

Other observations

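Genes next to the shared IDs in locus tag number showed the same order of organs more often than genes at large, as a description with no test. Of the 126 IDs with a number 1 apart from a shared ID that were not shared IDs themselves, 99 were tested. In 7 of these, or 7.07%, the lower of the root and stem means was at least 1 CPM and at least 2 times the highest of the other organs, against 1.87% of all tested IDs. With a factor of 4 it was 3, or 3.03%, against 0.588%.

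E3N88_02188, named after its values were seen, follows E3N88_02187 and was at 106, 184 and 166 CPM in root and 76.9, 69.3 and 105 CPM in stem. It missed the rule through its 42.3 to 43.9 CPM in flower, while leaf was at 7.55 to 12.2 CPM. E3N88_19942, also named after its values were seen and 2 numbers before E3N88_19944, was at 865, 5413 and 3873 CPM in root and 4564, 2314 and 567 CPM in stem. It had the low root replicate 1 and stem replicate 3 of E3N88_19944 and was at 356 to 1292 CPM in flower and leaf.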
